A study of Mus musculus with 15 samples.

Results

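The cytosolic ribosomal protein genes encode the protein part of the 80S ribosome, which reads mRNA in the cytosol. They were taken as the genes whose symbol is Rpl or Rps followed by a number, with Rpsa, Rplp0, Rplp1 and Rplp2, leaving out pseudogene symbols and the Rps6k kinases, and whose average reached 100 normalized counts in both control groups, shControl and vehicle. The members were thus chosen by name and by their control levels, and no treated library entered the rule. It kept 82 of the 89 genes with such a name, out of 34432 genes listed. By symbol, 33 belong to the small (40S) subunit and 49 to the large (60S) subunit. Rps3a2, counted among the 40S members, has 1 annotated transcript, which is not protein-coding, and is a near-identical copy of Rps3a1. The members nearest to the limit were Rps2 with means of 1063 in shControl and 2564 in vehicle, Rps27 with 1072 and 2090 and Rps18 with 1080 and 4520, and the gene just outside it was Rps3a3 with 93.2 and 151. The other 6 genes outside were at or near 0 in both control groups, among them Rpl3l and Rpl10l, the muscle and testis paralogs of Rpl3 and Rpl10.

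RNA-sequencing was done on CT26, an established mouse colon carcinoma cell line, in 15 libraries. The knockdown table held 3 shControl and 3 shPrmt1 libraries, in which a doxycycline-inducible hairpin against Prmt1, the main arginine methyltransferase that makes asymmetric dimethylarginine, was compared with a control hairpin. Whether doxycycline was also given to the shControl cells is not in the labels. The inhibitor table held 3 libraries each of WT cells given vehicle, MS023 or GSK3368715, a pair of small molecules that inhibit the type I arginine methyltransferases, PRMT1 among them. In the paper doxycycline was given for longer than the inhibitors. The labels give each library a replicate number and name no separate cultures, while the study's methods speak in general terms of independent experiments or biological replicates, so p-values measure the spread between these libraries, part of which may be technical.

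The reads assigned to genes ranged from 17284091 to 29233738 in the knockdown table and from 40119305 to 93697833 in the inhibitor table. Both tables were normalized separately, and levels are compared only within a table. Prmt1 itself stood at 5601, 5717 and 5620 normalized counts in shControl and at 669, 761 and 683 in shPrmt1, or 12.5% of the control mean, and it did not pass the test under MS023 (log2 fold change -0.07 ± 0.06 SE, limma adjusted p = 0.35) or with GSK3368715 (-0.01 ± 0.06, limma adjusted p = 0.91). The colon epithelial markers were mostly absent: Epcam was listed at 0 in every group and Cdh1 had means of 0 to 1.48, while Krt18, Krt20 and the mesenchymal marker Vim were detected, and the leukocyte markers had means of 0 to 6.51. In RNA from whole cultures, a lower level in all cells and a larger fall in some of them cannot be told apart, and normalized counts give a gene's part of the RNA, not its molecules per cell.

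Most ribosomal proteins are made in equal numbers from mRNAs that are among the most abundant in a growing cell. Their mRNAs typically begin with a 5′ terminal oligopyrimidine (5′ TOP) motif, a C followed by further pyrimidines, which places their translation under mTORC1 and LARP1, so that output is set largely at translation. The genome also holds many processed pseudogenes of these genes, which are copies of the spliced mRNA without introns. Arginine methylation reaches the ribosome directly, since Rps2 is the known substrate of Prmt3 and Rps3 and Rps10 are also methylated on arginine.

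Sequences bear on these genes in a practical way, because a read from spliced sequence that a gene and its copy share cannot be placed in either from its letters. Rpl5 (chr5:107900502-107909005, plus strand, GRCm38, GENCODE M21) and its copy Gm15500 (chr7:114705217-114706235, minus strand, a transcribed processed pseudogene) are shown because the largest change among the members turned on them. The stretches cover an exon end in lower case and the next 15 bases in capitals, which are the next exon in the spliced mRNA (chr5:107903389-107903403 joined to chr5:107903666-107903680), the matching bases of the copy, and the intron in a transcript annotated with this intron kept (chr5:107903389-107903418).
Rpl5 spliced: ctgctggcccgcaggCTTCTGAATAGGTTT
Gm15500: ctgctggcccgcaggCTTCTGAATAGGTTT
Rpl5 with the intron kept: ctgctggcccgcaggGTATGTATATAATAT
The spliced stretch and the copy were identical, and 7 of the 8 exon junctions examined in the coding transcripts of Rpl5 lay whole in a transcript of Gm15500. The coding sequence of Rpl5 was matched by Gm15500 at 100% identity over its full length. No transcript of Gm15500 held the stretch with the intron, and 1018 of the 2045 bases (49.8%) of the longest Rpl5 transcript were also in the copy. Of the 6 annotated transcripts of Rpl5, 4 are of the retained intron class.

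Windows around annotated starts in RefSeq (GRCm38.p6) were available for 61 of the 82 members, in 72 windows. A C followed by at least 4 more pyrimidines lay exactly at the annotated start in 13 of these windows (18.1%) against 2.51% of all 32851 windows, searched on the gene's strand only. Among the members called lower under MS023 it was found in 4 of 14 windows (28.6%, 11 genes), those of Rps18, Rpl28, Rpl35a and Rpl38. A longer tract was also sought, with at least 8 pyrimidines from a C within 10 bases of the start. It lay in 33.3% of the members' windows and 8.11% of all windows. Among the windows of members called lower under MS023 its share was 28.6%, below that of all members. The windows of the 4 members called under knockdown are shown from 10 bases before to 20 bases from each annotated start. Capitals mark a C followed by at least 4 more pyrimidines where this run began exactly at the start. Rps21 has 2 annotated starts.
Rpl5: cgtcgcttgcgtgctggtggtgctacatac
Rps28: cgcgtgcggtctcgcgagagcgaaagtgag
Rps3: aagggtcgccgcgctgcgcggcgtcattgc
Rps21, start 1: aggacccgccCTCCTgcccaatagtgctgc
Rps21, start 2: agtgagcaggtaggcctcggtgcgggctgt
These lie at chr5:107900518-107900547 (plus strand), chr17:33824543-33824572 (minus), chr7:99483690-99483719 (minus), chr2:180257369-180257398 (plus) and chr2:180257439-180257468 (plus). A window without capitals says only that no run of that length begins at this annotated base.

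The summed share of the ribosomal protein mRNAs moved little next to the spread between libraries, and outside Rpl5 the changes that passed the test were small. The 82 members together made up 5.26, 5.19 and 5.28% of all normalized counts in shControl and 5.24, 4.72 and 5.12% in shPrmt1. In the inhibitor table their share was 5.74, 5.47 and 5.21% in vehicle, 5.41, 5.32 and 5.45% in MS023 and 5.43, 5.70 and 5.68% in GSK3368715. The groups overlapped in each table, with shPrmt1 replicate 2 below the rest of its table and vehicle libraries at both ends of the range of theirs. The mean share was lower by 0.22 percentage points in shPrmt1 and 0.08 in MS023 and higher by 0.13 in GSK3368715, against SDs of 0.05 to 0.27 within groups. Without shPrmt1 replicate 2 the first difference was -0.07, without vehicle replicate 1 the MS023 difference was 0.05, and without vehicle replicate 3 the GSK3368715 difference was -0.0022. The summed 40S counts were 0.622 ± 0.012 (SD, n = 3) of the summed 60S counts in shControl, 0.646 ± 0.028 in shPrmt1, 0.613 ± 0.007 in vehicle, 0.610 ± 0.008 in MS023 and 0.615 ± 0.004 in GSK3368715.

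**Figure D1:**
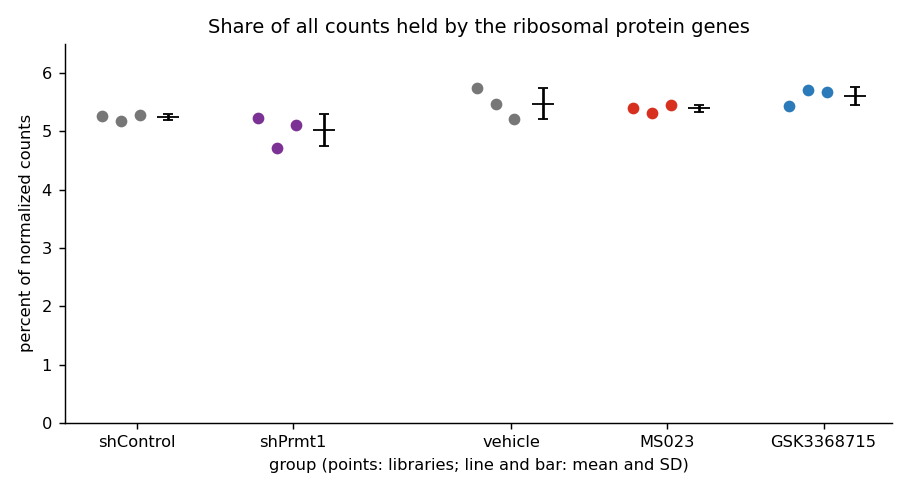
Share of all normalized counts of a library held by the 82 ribosomal protein genes (y axis, percent, starting at 0) in the 5 groups (x axis). Points are libraries and the line with bar is the mean with its SD (n = 3); the lowest point is shPrmt1 replicate 2 at 4.72% and the highest is vehicle replicate 1 at 5.74%.

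Each member was then tested within its table by limma on log2(normalized count + 1), with p-values adjusted over all genes tested. Under knockdown 4 of the 82 members passed (1 higher, 3 lower), or 4.88%, against 14.7% of the 11485 genes tested (7.5% higher, 7.17% lower). Under MS023 17 passed (3 higher, 14 lower), or 20.7%, against 27.9% of 13014 genes (13.7% higher, 14.1% lower). Under GSK3368715 2 passed (1 higher, 1 lower), or 2.44%, against 9.64% (5.16% higher, 4.47% lower), and without vehicle replicate 1 Rpl12 and Rpl27a were called higher beside Rpl5. Over both directions the members' shares lay below the background in each comparison, while their lower calls under MS023 came to 17.1% against 14.1%. Genes with a control mean of at least 100 gave backgrounds of 14.8, 30.4 and 10.6% over both directions. For lower calls under MS023 their background was 16.5%, near the members' 17.1%. The median log2 fold change of the members was -0.10 under knockdown, -0.06 under MS023 and 0.01 under GSK3368715, beside medians of 0.00 over all genes tested in each. Values were below 0 for 61, 64 and 36 of the 82 members.

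The 40S and 60S members had medians on the same side of 0 under knockdown and under MS023. Under knockdown the median log2 fold change was -0.06 over the 33 members of the 40S subunit and -0.12 over the 49 of the 60S subunit, and under MS023 it was -0.05 and -0.07. Under knockdown 24.2% of the 40S and 44.9% of the 60S members were without overlap, against 38.0% of all genes tested. All 3 lower calls there were 40S members and the 1 higher call was a 60S member. Under MS023 36.4% and 32.7% were without overlap, against 44.5%. The middle of the distribution, from the lower to the upper quartile, lay between -0.12 and -0.02 under MS023 and between -0.04 and 0.06 under GSK3368715. Across the members, the log2 fold changes under knockdown and MS023 were related with r = 0.72 (Pearson) and rho = 0.49 (Spearman) over 82 genes, and with 0.54 and 0.47 without Rpl5; these genes are not independent, since they share their libraries and any shift of a library enters all of them. The same figures for the knockdown and GSK3368715 were 0.66 and 0.39, and 0.44 and 0.36 without Rpl5.

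**Figure D2:**
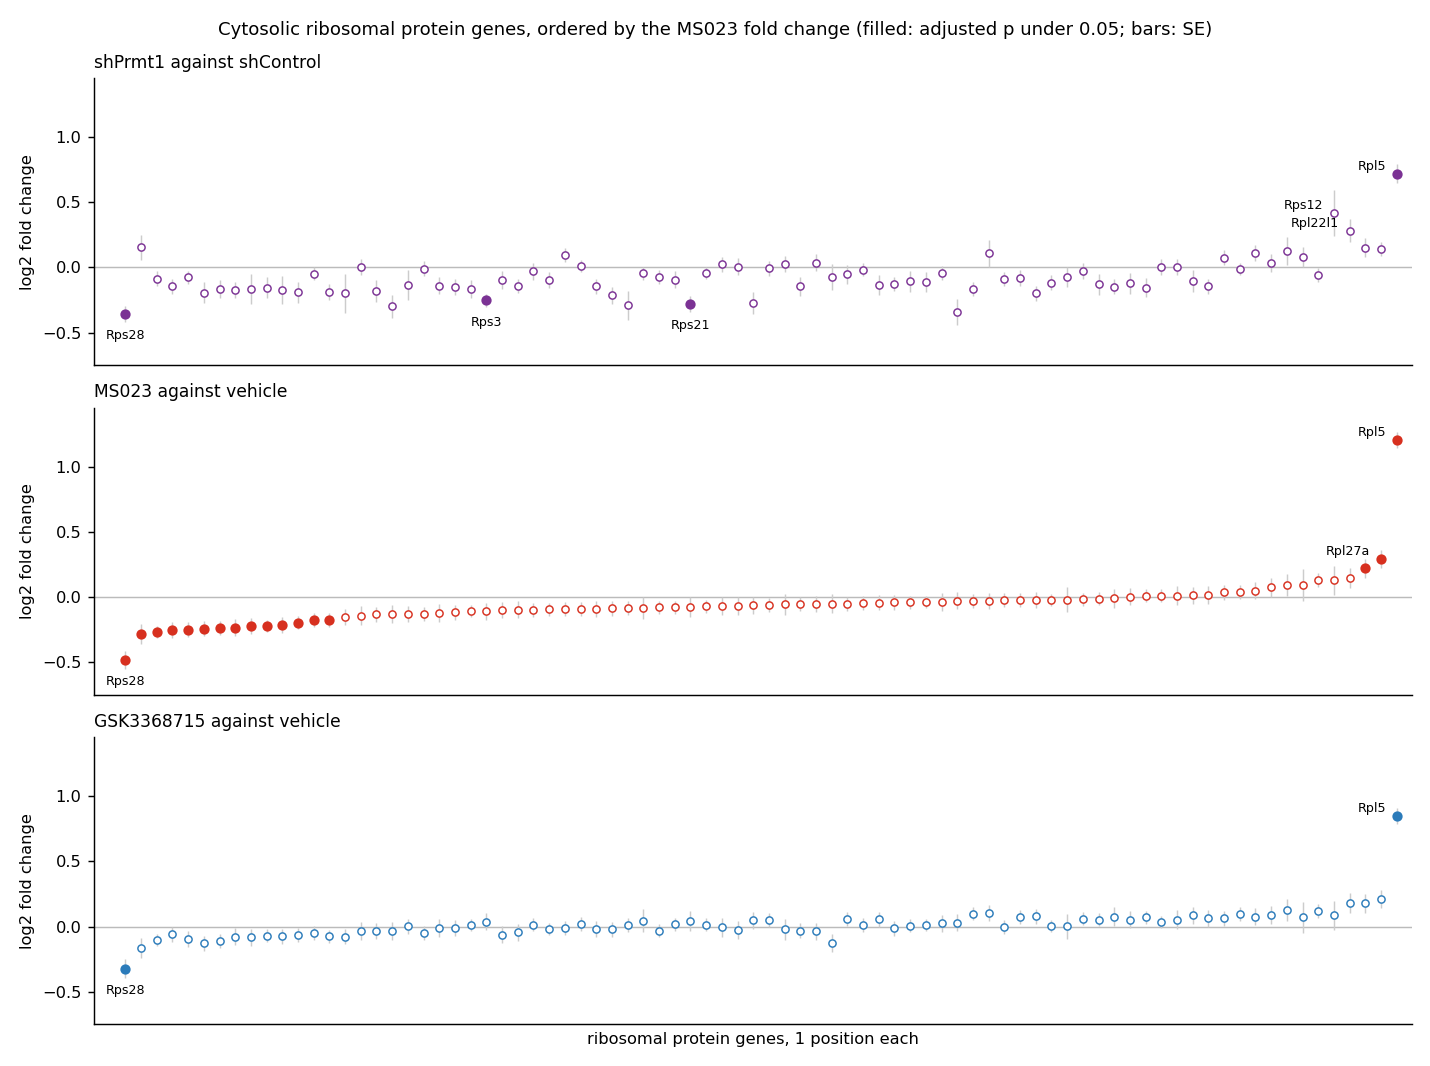
Log2 fold change (y axis) of each of the 82 ribosomal protein genes (x axis, ordered by the MS023 value) in the 3 comparisons, with its SE; filled points have a limma adjusted p under 0.05. Rpl5 is the highest point in each panel (0.72, 1.21 and 0.85) and Rps28 the lowest (-0.36, -0.48 and -0.32), with most members within 0.2 of 0.

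Rps28, a small protein of the 40S head, was the only member called lower in all 3 comparisons. It was counted at 6064, 5891 and 5804 in shControl and at 4761, 4304 and 4828 in shPrmt1. In the inhibitor table it stood at 20130, 18370 and 16860 in vehicle, 13460, 12810 and 13230 in MS023 and 13890, 14340 and 15960 in GSK3368715. Every treated library lay below every control library of its table. The log2 fold change was -0.36 ± 0.06 (SE, adjusted p = 0.0084) under knockdown, -0.48 ± 0.07 (adjusted p = 0.00092) with MS023, and for GSK3368715 it was -0.32 ± 0.07 (adjusted p = 0.020). With the reads of its near-identical copies added, the values were -0.35, -0.48 and -0.31 and each passed the test. The knockdown call was lost (adjusted p = 0.054) without shControl replicate 1, and the GSK3368715 call without GSK3368715 replicate 1 (adjusted p = 0.069) or replicate 2 (0.059). MS023 and GSK3368715 share the vehicle libraries, and set directly against each other they differed by 0.16 ± 0.07 in Rps28 (adjusted p = 0.38).

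Rpl5 had the largest change of any member in each comparison. Its protein joins Rpl11 and 5S rRNA in a particle that enters the large subunit and that, when free, binds the p53 regulator Mdm2. The counts assigned to Rpl5 were 2491, 2662 and 2398 in shControl and 4059, 4458 and 3922 in shPrmt1. They were 6111, 6365 and 5930 in vehicle, 15260, 14190 and 13060 in MS023 and 11240, 11250 and 10700 in GSK3368715. No treated library overlapped its controls, and the 3 inhibitor-table groups did not overlap each other. The log2 fold changes were 0.72 ± 0.07 (adjusted p = 0.00059), 1.21 ± 0.06 (adjusted p = 2.5e-06) and 0.85 ± 0.06 (adjusted p = 0.00011).

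No rise was called in the sum of Rpl5 and its copies. Gm15500 held far more of these reads than Rpl5 did, with 64580, 65300 and 62920 in vehicle, 54140, 53160 and 52070 in MS023 and 58030, 63550 and 58360 in GSK3368715. It fell under MS023 (log2 fold change -0.27 ± 0.05, adjusted p = 0.0034) and did not pass the test under GSK3368715 (-0.10 ± 0.05, adjusted p = 0.26). In the knockdown table Gm15500 stood at 23790, 22630 and 23210 in shControl and at 20170, 22360 and 22600 in shPrmt1 (-0.10 ± 0.06, adjusted p = 0.31). The sum over Rpl5 and all its near-identical copies had means of 25740 ± 509 (SD, n = 3) in shControl and 25870 ± 1419 in shPrmt1, and of 70410 ± 1438 in vehicle, 67310 ± 2132 in MS023 and 71060 ± 3257 in GSK3368715. For that sum the log2 fold change was 0.01 ± 0.06 (adjusted p = 0.95) under knockdown, -0.07 ± 0.05 (adjusted p = 0.39) with MS023, and for GSK3368715 it was 0.01 ± 0.05 (adjusted p = 0.91). Rpl5 held 9.78% of this sum in shControl and 8.71% in vehicle. A rise of Rpl5 alone would therefore be small in the sum and could miss the threshold. What moved was the part of the family's reads that was assigned to Rpl5, and the cause was not tested. Exons of Rpl5 also overlap 953 bases of Dipk1a on the opposite strand, a gene with a vehicle mean of 783 and a log2 fold change of -0.08 under MS023; whether the counting used strand is not given in the sources used here.

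**Figure D3:**
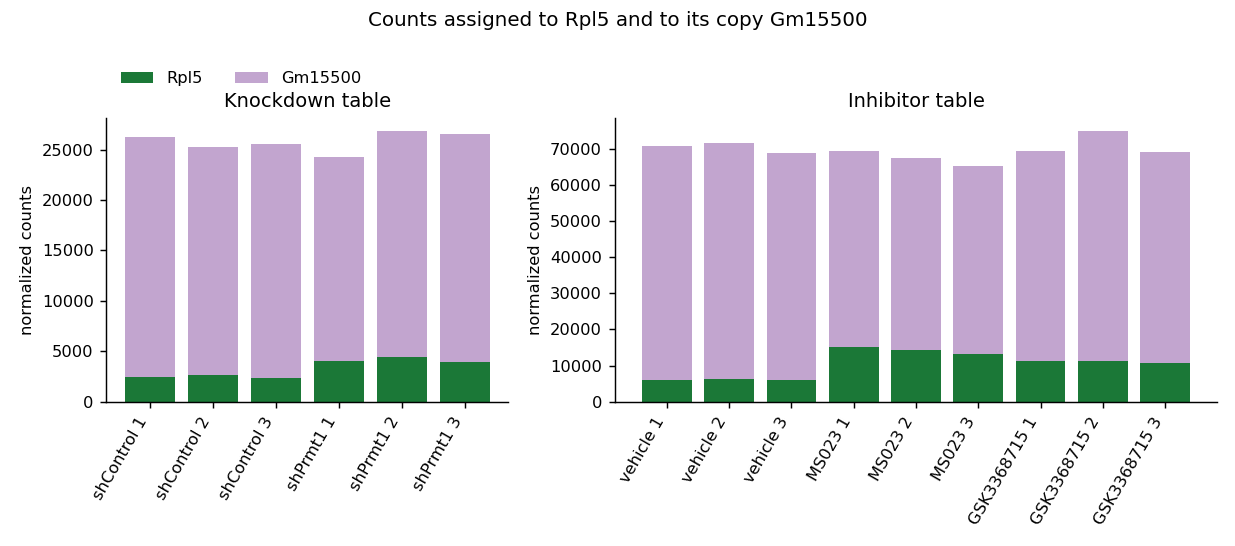
Normalized counts (y axis, from 0) assigned to Rpl5 (green) and to its copy Gm15500 (purple), stacked, in each library (x axis) of the knockdown table on the left and the inhibitor table on the right. The green part is larger in every treated library than in the controls, and the heights of the bars overlap between groups (65140 to 74820 in the inhibitor table).

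Rpl11, the partner of Rpl5 in the 5S particle, did not pass the test under any treatment. It was counted at 11170, 11290 and 11510 in shControl and 10260, 10080 and 11000 in shPrmt1 (log2 fold change -0.12 ± 0.06, adjusted p = 0.19), and its values were -0.02 ± 0.05 under MS023 and 0.00 ± 0.05 under GSK3368715. Of the 6 tested genes listed for the checkpoint that links this particle to p53, 2 rose under knockdown (Mdm2 by 0.38 ± 0.06 and the p53 target Ccng1 by 0.54 ± 0.11) and 1 fell (Nop53, -0.26 ± 0.07), against backgrounds of 7.5% higher and 7.17% lower. Under MS023 Mdm2 alone of the 6 was called, higher by 0.17 ± 0.06 (16.7% against 13.7% higher over all genes). By limma no gene of the 6 was called under GSK3368715 (1 higher at an unadjusted p under 0.05). The backgrounds there were 5.16% higher and 4.47% lower.

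Sharing with copies went well beyond Rpl5. For 76 of the 82 members the annotation held at least 1 other gene that matched the coding sequence at 95% identity or more over at least 80% of its length, and 28 members had such a copy that averaged 1000 or more in vehicle. In vehicle, 53 members held at least 95% of the counts of their family and 10 held less than 50%. Among the 10 was Rps3a2 (11.55%), itself a copy of Rps3a1, and with copies added both were given the same sum. Rps2, the Prmt3 substrate, held 1.19%: it was counted at 2635, 2586 and 2470 in vehicle while its copy Rps2-ps10 was counted at 220100, 207400 and 209600. Rpl12, a protein at the base of the stalk, held 7.68%, Rps27 8.15%, Rps18 8.23% and Rpl5 8.71%. Levels per kilobase of the annotated transcript spread with an SD of 1.32 on the log2 scale among 81 members in vehicle, and of 1.07 with the copies added, where annotated lengths can exceed the mRNA that is present.

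**Figure D4:**
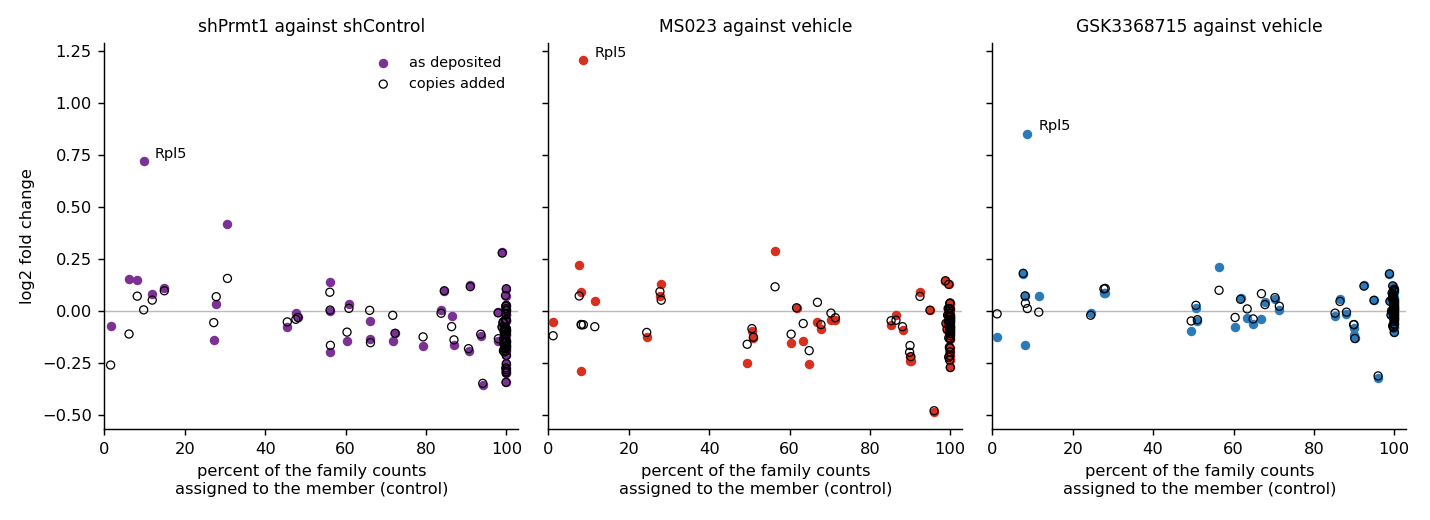
Log2 fold change (y axis) of each of the 82 members against the percent of its family's counts that was assigned to the member in the control group (x axis), as deposited (filled) and with the copies added (open). Rpl5 lies at 9.78% in shControl and 8.71% in vehicle and drops from 0.72, 1.21 and 0.85 to 0.01, -0.07 and 0.01 when its copies are added.

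The other members called higher were also ones that shared reads. Under MS023 Rpl27a, a 60S protein, was counted at 34330, 31070 and 29070 in vehicle and 40400, 38640 and 36390 in MS023 (log2 fold change 0.29 ± 0.07, adjusted p = 0.011), with 56.4% of its family's vehicle counts. Rpl12 was counted at 7053, 5740 and 6214 and at 7351, 7197 and 7516 (0.22 ± 0.07, adjusted p = 0.041). With copies added, no member was called higher under knockdown, MS023 or GSK3368715 by limma, against 2, 1 and 3 higher at an unadjusted p under 0.05, and edgeR and DESeq2 were not run on these sums. The backgrounds of those fits were 14.9, 28.4 and 9.79% of the genes tested. Where a member holds a small part of its family, as Rpl12 does (7.68% in vehicle), a change of the member alone is diluted in the sum. For such a member the sum cannot decide whether the member itself changed.

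The 14 members called lower under MS023 fell by small amounts. Their log2 fold changes ran from -0.48 for Rps28 to -0.17 for Rpl36, and in each of them all 3 MS023 libraries lay below all 3 vehicle libraries. That held for 24 of the 82 members in all, or 29.3%, against 22.1% of all genes tested, and the opposite held for 4, or 4.88%, against 22.4%. Among genes with a vehicle mean of at least 100 these backgrounds were 24.9% and 22.2%. Without overlap in either direction were 28 of the 82 members, or 34.1%, against 44.5% of all genes tested. Under GSK3368715 7 members, or 8.54%, were without overlap against 27.7%, 4 of them higher (4.88% against 13.7%) and 3 lower (3.66% against 14.1%). Lower calls were made for 14.1% of all genes tested, 16.5% of those with a vehicle mean of at least 100, and 14 of the 82 members. The count fell to 7 without vehicle replicate 1 or MS023 replicate 2 and to 8 without MS023 replicate 1, where lower calls over all genes came to 13.1, 9.49 and 10.7%. Of the members, 7 were called in each of these 3 fits: Rps28, Rps25, Rpl22, Rpl26, Rpl31, Rpl35a and Rpl36a. With copies added 12 of the 14 were still called, the exceptions being Rps18 and Rpl28.

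**Figure D5:**
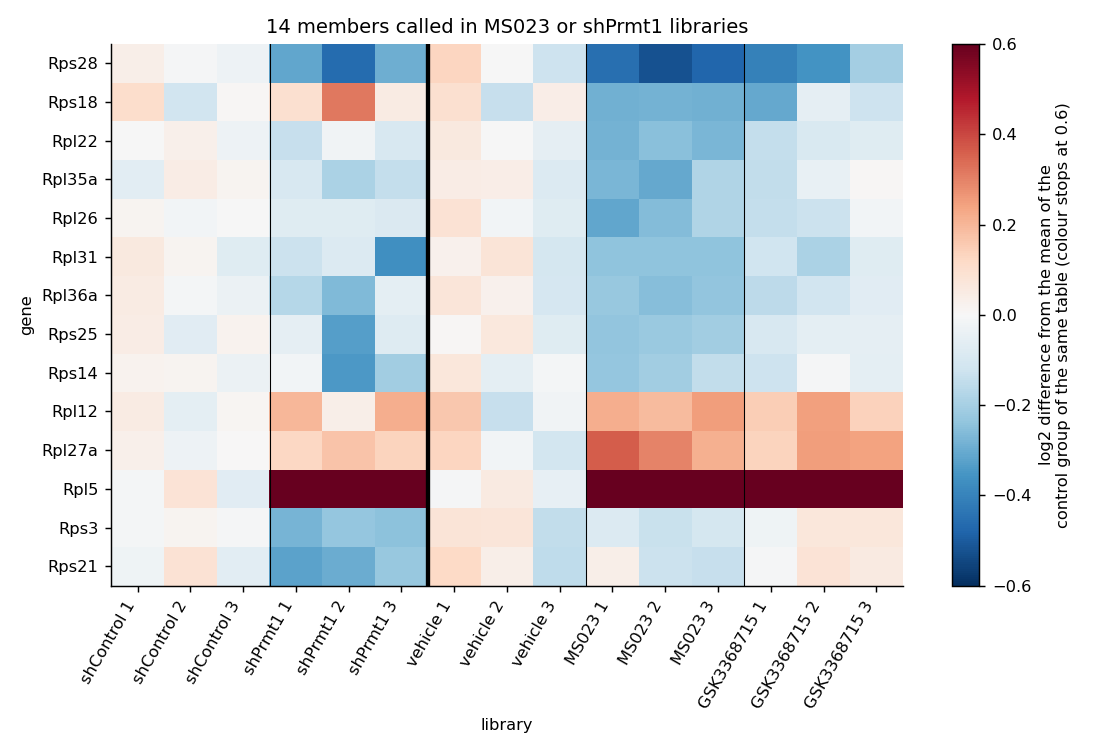
Log2 difference of each library (x axis) from the mean of the control group of its table, for 14 members called under MS023 or knockdown (y axis); red is higher and blue lower, and colours stop at 0.6. The 9 members shown that were called lower under MS023 are blue in its 3 libraries and mostly paler in the GSK3368715 libraries, and shPrmt1 replicate 2 is the bluest of its group for several of them.

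Among the small-subunit genes of this group, Rps25, a head protein known for its use by viral internal ribosome entry sites, was counted at 38500, 39980 and 36450 in vehicle and at 32520, 32850 and 33140 in MS023 (log2 fold change -0.22 ± 0.05, adjusted p = 0.0072). Its exons overlap 462 bases of Trappc4 on the opposite strand, which had a vehicle mean of 2131 and a log2 fold change of -0.12, and 206 bases of Ccdc84, with a mean of 714 and a log2 fold change of 0.43. Rps14, the platform protein whose loss marks the 5q- syndrome, was counted at 28720, 26330 and 27190 and at 23360, 23670 and 24740 (-0.20 ± 0.05, adjusted p = 0.020). Rps18 was counted at 4821, 4098 and 4642 in vehicle and at 3690, 3702 and 3698 in MS023 (-0.29 ± 0.08, adjusted p = 0.019), but these were 8.23% of its family's counts and with the copies Rps18-ps5 and Rps18-ps6 added it was no longer called. A fall of Rps18 alone is diluted in that sum, which cannot decide whether Rps18 itself fell.

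Among the large-subunit genes, Rpl22, an RNA-binding protein, had 16960, 16270 and 15700 counts in vehicle and 13410, 13680 and 13460 in MS023 (log2 fold change -0.27 ± 0.05, adjusted p = 0.0021). Its paralog Rpl22l1, whose expression Rpl22 is known to restrain, had 12050, 11940 and 10090 and then 13240, 12690 and 11730 (0.15 ± 0.08, adjusted p = 0.19), and the groups overlapped. In the knockdown table Rpl22l1 had 3980, 4224 and 3690 in shControl and 4566, 5411 and 4521 in shPrmt1 (0.28 ± 0.09, adjusted p = 0.062), without overlap, while Rpl22 stood at -0.08 ± 0.06. Rpl22l1 was called higher there by DESeq2 and without shPrmt1 replicate 2. Rpl35a, Rpl26, which binds the p53 mRNA, Rpl31, Rpl36a and Rpl38, which is known for its part in translating Hox mRNAs, fell by 0.25, 0.25, 0.24, 0.24 and 0.24 on the log2 scale under MS023. They held 64.9, 49.5, 90.2, 89.9 and 99.8% of their family's vehicle counts. The abundant copies of Rpl35a and Rpl26, Rpl35a-ps4 and Gm15772, were not called (-0.09 ± 0.05 and -0.08 ± 0.05). With copies added the Rpl26 sum had means of 33820 in vehicle and 30260 in MS023, and both sums were still called lower. Rpl28 and Rpl24 fell by 0.22 and 0.21, and exons of Rpl28 overlap 183 bases of Ube2s on the opposite strand, which had a vehicle mean of 25810 and a log2 fold change of -0.33.

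Under knockdown Rps3 and Rps21 were called lower beside Rps28. Rps3, which lies at the mRNA entry of the 40S subunit, was counted at 18420, 18740 and 18480 in shControl and at 15280, 15790 and 15650 in shPrmt1 (log2 fold change -0.25 ± 0.05, adjusted p = 0.012). Rps21 was counted at 7512, 8125 and 7329 and at 6125, 6228 and 6530 (-0.28 ± 0.06, adjusted p = 0.019). Both sets of 3 libraries were apart. Under MS023 Rps3 stood at -0.11 ± 0.07 (adjusted p = 0.25) and Rps21 at -0.08 ± 0.07 (adjusted p = 0.48). Without overlap and lower were 27 of the 82 members, or 32.9%, against 18.9% of all genes tested, and without overlap and higher were 3, or 3.66%, against 19.2%; together this was 36.6% against 38.0%. Lower calls were made for 3 of the 82 members, or 3.66%, against 7.17% of all genes tested.

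The knockdown calls varied with the libraries used, for the members and for all genes. Without shControl replicate 1 limma called no member lower and 1 higher (11 lower at an unadjusted p under 0.05), and without shControl replicate 2 or 3 Rps28 alone was called lower. Lower calls over all genes were 2.47, 3.61 and 2.72% in these 3 fits. Without shPrmt1 replicate 2, the library with the lowest share of counts in these genes, 11 members were called lower and 3 higher, against 11.4% lower and 10.4% higher over all genes. DESeq2 on the recovered reads called 9 lower, among them Rpl13, Rpl13a, Rpl8, Rplp1 and Rpsa, against 9.16% of all genes, and edgeR called the same numbers as limma, 1 higher and 3 lower. At an unadjusted p under 0.05, 23 members were lower and 4 higher by limma. The lowest knockdown values after Rps28 were Rpl13 at -0.34 and Rplp1, a protein of the stalk that recruits elongation factors, at -0.30 (adjusted p = 0.057).

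The remaining members fixed for naming were not called by limma in the fit of all libraries. In the stalk, Rplp0 had log2 fold changes of -0.13, -0.04 and 0.06 under knockdown, MS023 and GSK3368715, and Rplp2 had -0.12, 0.00 and 0.05. The arginine-methylated Rps10 had -0.18, -0.13 and -0.03. Rps2 had -0.07, -0.05 and -0.12 in its own small part of its family's reads, and with copies added -0.26 ± 0.10 (adjusted p = 0.11), -0.12 ± 0.06 (adjusted p = 0.17) and -0.01 ± 0.06 (adjusted p = 0.91). The family sum was 69410, 63300 and 72750 in shControl and 61350, 49290 and 61690 in shPrmt1, without overlap. Rps6, the S6 kinase substrate, had -0.04, -0.07 and 0.01, Rps19, mutated in Diamond-Blackfan anemia, had -0.10, 0.01 and 0.09, and Rpl13a, a part of the interferon-activated inhibitor of translation, had -0.27, -0.06 and 0.05. Among paralog pairs, Rps27l, a p53 target, had 0.11, -0.03 and 0.11 and Rps27 0.08, 0.09 and 0.07; Rpl39l had -0.10, -0.10 and -0.06 and Rpl39 0.00, 0.01 and 0.05. Rpl7l1 had 0.00, 0.01 and 0.04 and Rpl7 -0.01, 0.04 and 0.09. Rpl3, Rpl10, Rpl29 and Rpl41 had 0.03, -0.15, -0.20 and -0.29 under knockdown and 0.07, 0.02, -0.15 and -0.08 under MS023. The highest uncalled knockdown value was that of Rps12 (0.42 ± 0.17, adjusted p = 0.14), whose shPrmt1 libraries at 3539, 5624 and 4256 overlapped the controls at 3986, 2900 and 3077 and which held 30.6% of its family in shControl.

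GSK3368715 and MS023, inhibitors with the same class of target, were compared directly within the inhibitor table. Only Rpl5 was called, lower in GSK3368715 than in MS023 by 0.35 ± 0.06 on the log2 scale (adjusted p = 0.037), against 0.515% of the 13014 genes tested (0.315% higher, 0.2% lower) and 0.596% of those with a MS023 mean of at least 100. This call was lost when any 1 of the 6 libraries compared was left out (adjusted p = 0.053 to 0.16), and with copies added Rpl5 stood at 0.08 ± 0.05 (adjusted p = 0.58, background 0.514%). The other 81 members did not pass, with differences up to 0.19 ± 0.06 for Rpl35a (adjusted p = 0.20) and 0.17 ± 0.05 for Rpl22 (adjusted p = 0.17). Values were above 0 for 75 of the 82 members with a median of 0.08, beside 0.00 over all genes tested, and 27 members, or 32.9%, had groups without overlap against 21.4% of all genes tested (26 higher, 31.7% against 11.4%, and 1 lower, 1.22% against 9.95%). No member was called higher by limma or edgeR and 1, Rpl22, by DESeq2; at an unadjusted p under 0.05, limma gave 13 higher. A p that misses the threshold does not show that the compounds act alike on these genes.

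The knockdown effect was compared with each inhibitor effect in a fit of all 15 libraries. Knockdown and inhibitor libraries also differ in cell line, length of treatment and table. These cannot be told apart here from the kind of treatment. Against MS023, 2 members differed (background 7.63% of 11471 genes tested, 4.23% higher and 3.4% lower): Rpl5, whose knockdown effect was smaller by 0.49 ± 0.09 on the log2 scale (adjusted p = 0.0056), and Rps18, which stood at 0.15 under knockdown and -0.29 under MS023 (difference 0.44 ± 0.12, adjusted p = 0.043). The Rps18 call was lost on leaving out any 1 of 8 libraries, among them shPrmt1 replicate 2 and each MS023 library, and with copies added (background 7.71%) the differences were 0.07 ± 0.08 for Rpl5 and -0.04 ± 0.08 for Rps18. Both members were a small part of these sums, in which a difference in the member alone is diluted. Against GSK3368715 no member differed by limma or edgeR (background 4.11%, of which 2.47% higher and 1.64% lower, and 4.17% with copies added), 13 were lower and 1 higher at an unadjusted p under 0.05, and DESeq2 called 4 lower, among them Rps3, Rps21 and Rpsa. Leaving out vehicle replicate 1 gave 3 lower by limma, and leaving out vehicle replicate 2 or shPrmt1 replicate 1 gave 1.

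Genes around the ribosome were counted from the lists set for this comparison. Of 23 translation factors and other genes known for 5′ TOP mRNAs, 4 fell under knockdown (background 7.17% lower), among them the elongation factor subunits Eef1g (-0.64 ± 0.08) and Eef1d (-0.39 ± 0.09). Under MS023 7 fell (background 14.1% lower), among them Eef1d (-0.31 ± 0.06) and the poly(A)-binding protein Pabpc1 (-0.29 ± 0.05), and under GSK3368715 1 rose and 1 fell (background 5.16% higher and 4.47% lower). The list's medians were -0.06, -0.09 and -0.03. Of 15 mTORC1 and LARP1 regulators of 5′ TOP mRNAs none was called under knockdown by limma (1 higher and 4 lower at an unadjusted p under 0.05). Under MS023 3 fell (20% against 14.1% lower over all genes) and under GSK3368715 1 fell (6.67% against 4.47%), with none called higher. The 3 lower under MS023 were Eif4ebp1 (-0.33 ± 0.08), Larp1 (-0.27 ± 0.07) and Rheb (-0.25 ± 0.07). Medians of this list were -0.01, 0.06 and 0.01 in the 3 comparisons, so under MS023 its middle lay above 0.

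Of 10 chaperones, importers and modifying enzymes of ribosomal proteins, 4 fell and 1 rose under MS023 (background 14.1% lower and 13.7% higher). They included Tsr2, the chaperone of Rps26 (-0.57 ± 0.08), and Prmt3, the methyltransferase of Rps2 (-0.39 ± 0.06, adjusted p = 0.0012); Tsr2 was also lower under GSK3368715 (-0.30 ± 0.08, adjusted p = 0.040). Prmt3 stood at -0.02 ± 0.07 under knockdown and -0.19 ± 0.06 under GSK3368715 (adjusted p = 0.077). Of 6 tested genes listed as ribosomal proteins outside the rule (the member Rpl39l among them), 1 fell under knockdown and 2 under MS023. The backgrounds were 7.17% and 14.1% lower. None was called under GSK3368715 by limma (2 lower at an unadjusted p under 0.05). Fau, which carries Rps30, fell by 0.32 on the log2 scale under knockdown and by 0.28 under MS023, and Rpl36al fell by 0.29 under MS023. Of 78 mitochondrial ribosomal proteins, which build the separate ribosome of mitochondria, 5 fell under knockdown (6.41% against 7.17%), 18 fell and 1 rose under MS023 (23.1% lower against 14.1%) and 8 fell under GSK3368715 (10.3% against 4.47%), with medians of -0.07, -0.08 and -0.04.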

How the data were processed

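Libraries were poly(A)-selected paired-end RNA-seq. Per the labels and methods, the authors quantified reads on mm10 with Salmon 1.4.0 and normalized with DESeq2; the deposited signal values are normalized counts per gene, which size factors had already scaled. Dividing by the step between values returned a whole read number, within 0.05, in 100% of cases. The authors also deposited fold changes and p-values of their own comparisons, which were not used. Here, log2(value + 1) was used for genes that reached 10 in 3 or more libraries, a scale that understates changes of low genes, and was tested by limma 3.58.1 (R 4.3.3) with a trend, two-sided, Benjamini-Hochberg adjusted over all genes tested, at 0.05; the inhibitor contrasts share 1 fit of 9 libraries. On simulated data limma recovered most of the set changes, all larger than any change of a member other than Rpl5 here. Recovery of smaller changes was not tested. edgeR 4.0.16 and DESeq2 1.42.0 on recovered reads were alternatives; edgeR called 896 genes higher and 816 lower under knockdown, 1820 and 1800 under MS023, and 669 and 573 under GSK3368715. Copies were found by alignment of coding sequences to GENCODE M21 transcripts, which may not be the authors' set. The named genes were members called without overlap (up to 6 a direction), the 3 highest and 3 lowest values, and fixed paralogs, stalk, 5S and disease genes, with up to 4 called genes a list, not all reported singly. Outside this rule, Rps25, Rpl36a, Rpl38, Rpl28, Rpl24, Rpl36, Rpl8 and Rpsa were named after their values were seen, as were copies and overlapping neighbours. The snoRNA host list had no gene in the tables. The 13 mitochondrial transcripts gave 3 higher (23.1% against 7.5% of all genes tested) and 4 lower (30.8% against 7.17%) under knockdown. Under the inhibitors they gave no call by limma (1 lower under MS023 and 0 otherwise at an unadjusted p under 0.05). The backgrounds there were 27.9% under MS023 and 9.64% under GSK3368715. The members and lists were chosen with earlier results of these data known. Some members are counted but not reported here by name.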

Additional observations from a re-analysis of the deposited data

Results flagged for a closer look

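In 3 cases the effects of 2 treatments on a member differed by a test of the difference itself. The knockdown effect on Rpl5 was smaller than the MS023 effect by 0.49 on the log2 scale (difference -0.49 ± 0.09 SE, limma adjusted p = 0.0056), in counts that left out the copy Gm15500. The knockdown effect on Rps18 was above its MS023 effect by 0.44 ± 0.12 (adjusted p = 0.043), in counts that were 6.13% of the family's in shControl and 8.23% in vehicle. Rpl5 was also lower in GSK3368715 than in MS023 libraries (difference -0.35 ± 0.06, adjusted p = 0.037), with 3 of 3 libraries below. None of these differences was called when the reads of the copies were added. Those sums are mostly reads of the copies, so a difference in the member alone is diluted in them. The knockdown libraries also differ from the MS023 libraries in cell line and length of treatment. Groups of 3 libraries were not searched for outlying values.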

How the results depend on the processing

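Of 3264 alternative values of single named genes, 3036 kept their direction and call or stayed uncalled (63 of these changed sign uncalled), 201 lost and 23 gained the call, and 4 reversed, all with copies added: Rpl5 to -0.0653 (MS023), 0.0777 (GSK3368715 against MS023) and 0.0715 (knockdown minus MS023), and Rps18 to -0.0439 (knockdown minus MS023). The median log2 fold changes and the differences in share moved by less than the spread between libraries under every alternative run; with 1 library left out the medians ran from -0.11 to -0.05 (knockdown), -0.11 to -0.02 (MS023), -0.03 to 0.04 (GSK3368715) and 0.06 to 0.10 (GSK3368715 against MS023). Copies added to the summed share, an alternative chosen after the data were seen, gave differences of -0.25, -0.09 and 0.18 percentage points.

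Counts of members called moved as follows. Copies added gave 0 higher under knockdown, MS023 and GSK3368715, 0 lower in GSK3368715 against MS023, and 0 higher and 0 lower in knockdown minus MS023. DESeq2 gave 2 higher and 9 lower under knockdown, 2 higher under GSK3368715, 1 higher in GSK3368715 against MS023, 2 higher in knockdown minus MS023 and 4 lower in knockdown minus GSK3368715, where TMM factors gave 1. Scaling to the same total, over all genes or outside the members, gave 3 higher under knockdown. No trend gave 0 lower under GSK3368715, 0 lower in GSK3368715 against MS023 and 0 higher in knockdown minus MS023. Only the groups compared gave 0 lower under GSK3368715; no filter gave 0 lower in GSK3368715 against MS023 and 0 higher in knockdown minus MS023, as did the same upper quartile for the latter. With 1 library left out, higher and lower calls ran from 1 to 3 and 0 to 11 (knockdown), 2 to 3 and 7 to 15 (MS023), 1 to 3 and 0 to 1 (GSK3368715), 0 to 0 and 0 to 0 (GSK3368715 against MS023), 0 to 1 and 1 to 2 (knockdown minus MS023) and 0 to 0 and 0 to 3 (knockdown minus GSK3368715). The cause was not tested.

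With the replicate block the counts were 2 higher and 14 lower under knockdown (over all genes 1346 and 1325, against 861 and 823 without it), 2 and 12 under MS023 (1578 and 1641, against 1784 and 1841), 1 and 1 under GSK3368715, 0 lower in GSK3368715 against MS023 and 0 higher in knockdown minus MS023. Same-numbered knockdown libraries deviated together with r = 0.061, 0.116 and 0.081 and each matched its own number best; in the inhibitor table r ran from -0.102 to 0.113. Not every pair passed 0.1, so the numbers were not taken to pair the libraries; in the knockdown table the data leave this unresolved. Scaling to the same total moved the split of all genes called from 861 higher and 823 lower to 1082 and 666 under knockdown, and from 1784 and 1841 to 2200 and 1509 under MS023.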
